A study of Mus musculus with 4 samples.

Results

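The genes described here are 39 genes that microglia express, compared in the ischemic hippocampus between mice with and without aromatase in forebrain neurons. They were chosen by name, as markers of homeostatic microglia, of activated microglia and of the myeloid lineage, and all 39 were found among the 22609 gene symbols that were counted. By role, 11 are homeostatic genes, 4 are receptors and regulators of survival and sensing, 4 are Fc receptors, 7 are surface and adhesion genes shared by myeloid cells, 3 belong to the lysosome and endosome, and 10 are activation genes. From these, 5 homeostatic genes (Tmem119, P2ry12, Cx3cr1, Sall1 and Siglech) were set against 6 activation genes (Lgals3, Itgax, Cst7, Clec7a, Axl and Cd68).

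The libraries are RNA-Seq of hippocampus from ovariectomized female mice, 2 labelled FLOX+GCI and 2 labelled FBN-ARO-KO+GCI. GCI is global cerebral ischemia, here 20 min with both common carotid arteries occluded and then 24 h of reperfusion. FBN-ARO-KO mice have a Cre/LoxP deletion of Cyp19a1, which encodes aromatase, the enzyme that makes estradiol from androgens. The Cre is driven by the CaMKIIα promoter, so the deletion is directed at excitatory forebrain neurons and not at microglia, and FLOX mice are the floxed controls. All mice were ovariectomized 1 week before ischemia and were 3 to 5 months old, so the ovarian source of estradiol was removed in both groups. No library from sham-operated mice was analysed here, so each value is a comparison of genotypes after GCI and not a response to GCI. The design text says that sequencing was done in duplicate, the sources used here do not say that the 2 libraries of a group came from separate mice, and p-values measure only the spread between these libraries, which may be technical.

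Microglia are the resident macrophages of the brain. They depend on signaling through the receptor Csf1r, and in the healthy brain they hold a surveying state marked by genes such as Tmem119 and P2ry12, which is kept up by TGF-β signaling and the transcription factor Sall1. After injury or around dying cells they turn down many of these genes and turn on genes of phagocytosis, lysosomal digestion and lipid handling, among them Lgals3, Itgax, Cst7, Clec7a and Axl, in part through the receptor Trem2 and its adaptor Tyrobp.

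Counts on genes totaled 24333396 to 24774433 in the FLOX+GCI libraries and 30114003 to 33076795 in the FBN-ARO-KO+GCI libraries. At this depth 3 counts correspond to 0.0907 to 0.123 CPM (counts scaled to the size of the library), which is taken as the floor of detection and covers counting error only. Libraries of a group differed by more than counting noise, with a chi-square per degree of freedom of 10.5 between the FLOX+GCI libraries and 12.3 between the FBN-ARO-KO+GCI libraries, which does not tell separate mice from technical repeats. The targeted gene could not check the labels: Cyp19a1 had 4 counts in FLOX+GCI replicate 1, 1 in replicate 2, and 2 in each FBN-ARO-KO+GCI library. The libraries held transcripts of neurons, with summed CPM of 9 neuron markers between 11950 and 12910 in every library, which does not identify the brain region. Defining microglia markers such as Csf1r and Cx3cr1 were present in all 4 libraries.

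No microglia gene passed the test between genotypes. Counts were compared with edgeR's quasi-likelihood test across the 14527 genes that passed a filter on low counts, with Benjamini-Hochberg adjustment over all of them, and 36 of the 39 microglia genes were among them. Of these 36, 0 had an adjusted p under 0.05, where 0.0138% of all genes tested did, and the smallest adjusted p by edgeR among the 36 was 0.245. At an unadjusted p under 0.05, 1 of the 36 was higher in FBN-ARO-KO+GCI, Fcrls, where 8.72% of all genes were, and 3 were lower, Axl, Cd68 and Lyz2, where 7.82% of all genes were. DESeq2, which gave an adjusted p to 7 of the microglia genes, also called 0, with 3 at an unadjusted p under 0.05. Over all genes DESeq2 called 292 of the 5728 with an adjusted p, and 1859 of 17821 had an unadjusted p under 0.05. With 2 libraries against 2, the smallest two-sided p that an exact permutation test of 1 gene allows is 0.33, and the edgeR values rest on a spread estimated across genes.

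Both libraries of FBN-ARO-KO+GCI lay above both of FLOX+GCI for 4 of the 36 genes, where 25.9% of all genes tested did so, and below them for 10, where 25.8% did so. The median log2 fold change of the 36 genes was -0.07, with 13 above 0 and 23 below, beside -0.0074 for all genes tested. With 1 library left out it lay between -0.13, without FBN-ARO-KO+GCI replicate 2, and -0.0080, without FBN-ARO-KO+GCI replicate 1. The range ran from -0.90 for Lgals3 to 0.48 for Fcrls. The median size of the difference was 0.27 between the FLOX+GCI libraries and 0.21 between the FBN-ARO-KO+GCI libraries, beside 0.18 between genotypes. The value between genotypes is fitted from 2 libraries of each, which lowers its noise, so these sizes cannot be ranked against each other. FLOX+GCI replicate 2 minus replicate 1 ran from -0.74 (Gpr34) to 0.76 (Olfml3), and FBN-ARO-KO+GCI replicate 2 minus replicate 1 from -0.52 (Irf8) to 0.83 (P2ry12) on the log2 scale. The plot of levels by library shows where genotypes separate and where they do not. In whole tissue, fewer microglia and less RNA of a gene in each microglial cell cannot be told apart.

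**Figure D1:**
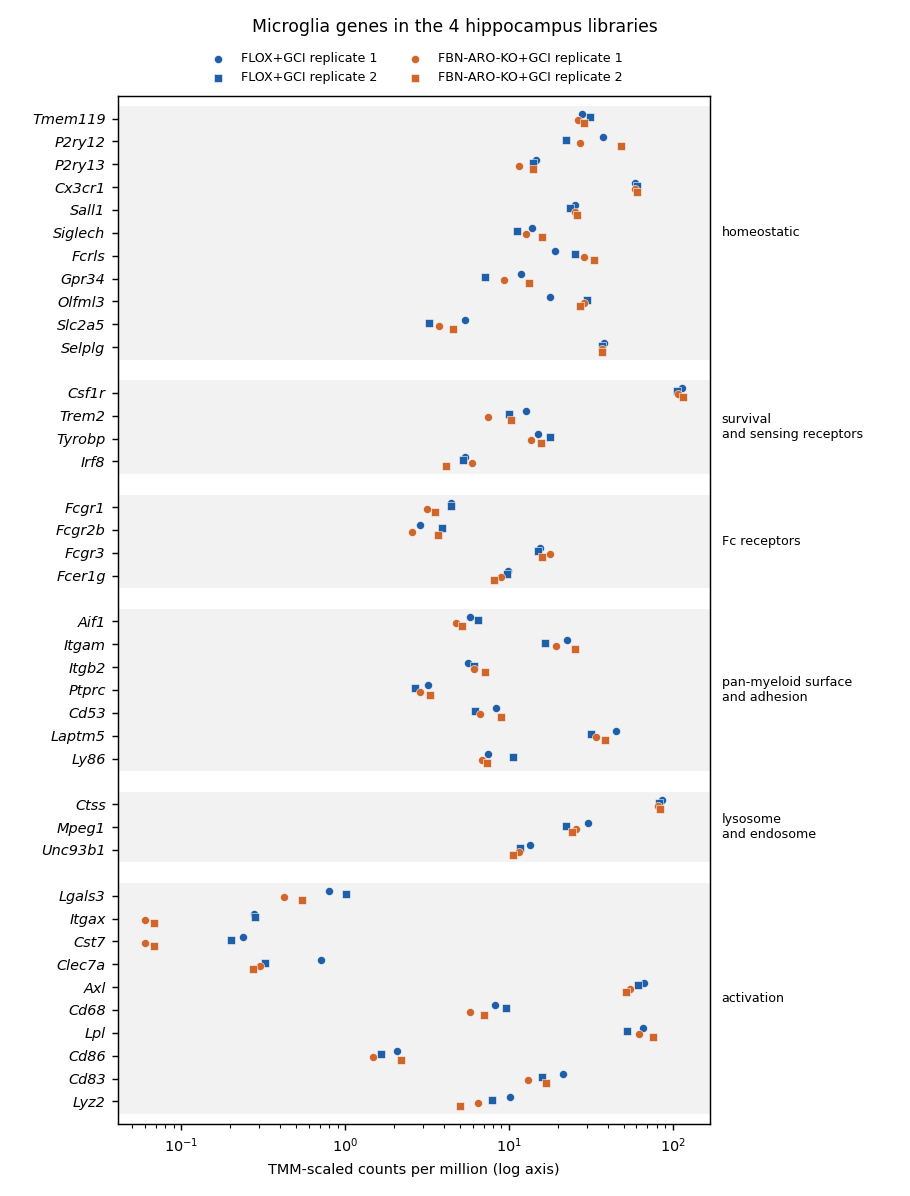
Level of each of the 39 microglia genes in each library, as TMM-scaled CPM on a log axis, with FLOX+GCI in blue, FBN-ARO-KO+GCI in orange, replicate 1 as circles and replicate 2 as squares, grouped by role. Cx3cr1 and Selplg coincide in all 4 libraries, P2ry12 spreads widely in both genotypes, and Lgals3, Itgax and Cst7 at the bottom left have both orange points below both blue points.

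None of the 5 homeostatic genes of the contrast had an unadjusted p under 0.05, and 3 of them lay close in all libraries. Cx3cr1, the receptor for the neuronal chemokine fractalkine, was at 58.9 and 60.3 CPM in FLOX+GCI and at 58.7 and 60.3 CPM in FBN-ARO-KO+GCI. Tmem119, a membrane protein of unclear function that marks resident microglia, was at 27.8 and 31.2 CPM in FLOX+GCI and at 26.5 and 28.9 CPM in FBN-ARO-KO+GCI. Sall1, a zinc-finger transcription factor of microglial identity, was at 25.2 and 23.6 CPM in FLOX+GCI and at 25.3 and 26.1 CPM in FBN-ARO-KO+GCI. For Cx3cr1 and Tmem119 the genotypes overlapped, and for Sall1 both FBN-ARO-KO+GCI libraries were higher, with the nearest libraries of opposite genotype at 25.2 and 25.3 CPM.

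The estimates for these genes were also close to 0. The log2 fold change, FBN-ARO-KO+GCI minus FLOX+GCI, was -0.0023 ± 0.077 (SE) for Cx3cr1, with a 95% confidence interval of -0.18 to 0.18. It was -0.09 ± 0.11 for Tmem119, with an interval of -0.34 to 0.16, and 0.07 ± 0.10 for Sall1, with an interval of -0.16 to 0.31.

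P2ry12 and Siglech varied more. P2ry12, the ADP receptor that guides microglial processes to injury, was at 37.4 and 22.4 CPM in FLOX+GCI and at 27.2 and 48.4 CPM in FBN-ARO-KO+GCI. The lowest and the highest library were of opposite genotype, but the other 2 crossed, and the log2 fold change of 0.33 ± 0.30 had an interval of -0.38 to 1.04. Without FBN-ARO-KO+GCI replicate 2, the log2 fold change of P2ry12 was -0.14, and without FLOX+GCI replicate 1 it was 0.75. P2ry12 and its neighbor P2ry13 lie within the gene Med12l on the opposite strand, and the strand setting of the counting was not given in the sources used here, so reads of Med12l could enter their counts. Siglech, a sialic acid-binding lectin, was at 13.7 and 11.2 CPM in FLOX+GCI and at 12.7 and 16.0 CPM in FBN-ARO-KO+GCI, overlapping, with a log2 fold change of 0.20 ± 0.17.

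Of the other 6 homeostatic genes, Fcrls was the one that stood highest in FBN-ARO-KO+GCI. Fcrls, an Fc receptor-like scavenger molecule of mouse microglia, was at 19.2 and 25.1 CPM in FLOX+GCI and at 28.6 and 33.1 CPM in FBN-ARO-KO+GCI. Both FBN-ARO-KO+GCI libraries were above both FLOX+GCI libraries, and libraries of 1 genotype also differed from each other. The log2 fold change of Fcrls was 0.48 ± 0.15, or 1.39-fold, with an unadjusted p of 0.0143 and an adjusted p of 0.248 by edgeR's quasi-likelihood test. Of the settings run, Fcrls was called only without FLOX+GCI replicate 2, at a log2 fold change of 0.68 and an adjusted p of 0.0465 by edgeR. FLOX+GCI then had 1 library, which was assumed to vary like the FBN-ARO-KO+GCI libraries. Leaving out FLOX+GCI replicate 1 instead gave 0.30 on the log2 scale.

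The remaining homeostatic genes were P2ry13, Gpr34, Olfml3, Slc2a5 and Selplg. Their log2 fold changes lay between -0.16 for P2ry13 and 0.25 for Gpr34, and none had an unadjusted p under 0.05. The FLOX+GCI libraries were apart for Olfml3, at 17.8 and 30.1 CPM, and for Gpr34, at 11.9 and 7.10 CPM, so neither estimate is precise. Among all 11 homeostatic genes the median log2 fold change was 0.07, with 6 above 0 and 5 below.

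The activation genes of the contrast gave the other pattern. All 6 were lower in both FBN-ARO-KO+GCI libraries than in either FLOX+GCI library, where 25.8% of all genes tested were, but 3 of them were too rare to pass the filter and none had an adjusted p under 0.05. Most were rare in this tissue: per kilobase of transcript, averaged over the libraries, Lgals3, Clec7a, Cst7 and Itgax were the 4 lowest of the 39 genes, between 0.0428 and 0.490 CPM per kb. Ctss, the highest, was at 61.3 CPM per kb and Cx3cr1 at 16.0 CPM per kb.

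Axl and Cd68 carried the most counts. Axl, a receptor kinase that binds apoptotic cells through its ligand Gas6, was at 66.3 and 61.4 CPM in FLOX+GCI and at 54.9 and 52.1 CPM in FBN-ARO-KO+GCI. The log2 fold change of Axl was -0.26 ± 0.08, or 0.838-fold, with an interval of -0.45 to -0.06, an unadjusted p of 0.0174 and an adjusted p of 0.248 by edgeR. Cd68, a lysosomal membrane glycoprotein of phagocytes, was at 8.26 and 9.57 CPM in FLOX+GCI and at 5.76 and 7.0 CPM in FBN-ARO-KO+GCI. The log2 fold change of Cd68 was -0.48 ± 0.17, or 0.715-fold, with an interval of -0.89 to -0.08, an unadjusted p of 0.0258 and an adjusted p of 0.255 by edgeR.

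Lgals3, the galactose-binding lectin galectin-3 of phagocytes, had counts of 20 and 25 in FLOX+GCI against counts of 14 and 16 in FBN-ARO-KO+GCI, although the FBN-ARO-KO+GCI libraries were deeper. That is 0.798 and 1.01 CPM against 0.422 and 0.546 CPM. Its log2 fold change of -0.90 ± 0.40 was the lowest of the 36 genes tested, with an interval of -1.83 to 0.03 and an unadjusted p of 0.0556.

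Below the filter, Itgax, the integrin CD11c, had 7 counts in each FLOX+GCI library and 2 in each FBN-ARO-KO+GCI library. Cst7, the protease inhibitor cystatin F, had 6 and 5 counts in the FLOX+GCI libraries and 2 in each FBN-ARO-KO+GCI library. In both genes the FBN-ARO-KO+GCI libraries were under the floor of 3 counts. Summed over the libraries of a genotype and scaled for depth, the ratio of FBN-ARO-KO+GCI to FLOX+GCI was 0.228 for Itgax, with an exact counting interval of 0.0545 to 0.724, and 0.290 for Cst7, with an interval of 0.0672 to 0.977. In the fit without the filter, Itgax had an unadjusted p of 0.0357 and an adjusted p of 0.303 by edgeR, and Cst7 an unadjusted p of 0.0862. The counting intervals cover counting error and not the spread between libraries. Clec7a, the β-glucan receptor dectin-1, had counts of 18 and 8 in FLOX+GCI against counts of 10 and 8 in FBN-ARO-KO+GCI. Its nearest libraries of opposite genotype, at 0.325 and 0.302 CPM, were less than 1 count apart, and its ratio of 0.551 had an interval of 0.285 to 1.04.

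Itgax shares 9.63% of its 50-base stretches with Itgad, a neighboring integrin gene, so a read could fit both. Itgad, named here after its values were seen, had the highest log2 fold change of all 14527 genes, at 1.93 with an adjusted p of 0.238 by edgeR. The genes thus stood in opposite directions, and how reads were divided between them was not tested.

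**Figure D2:**
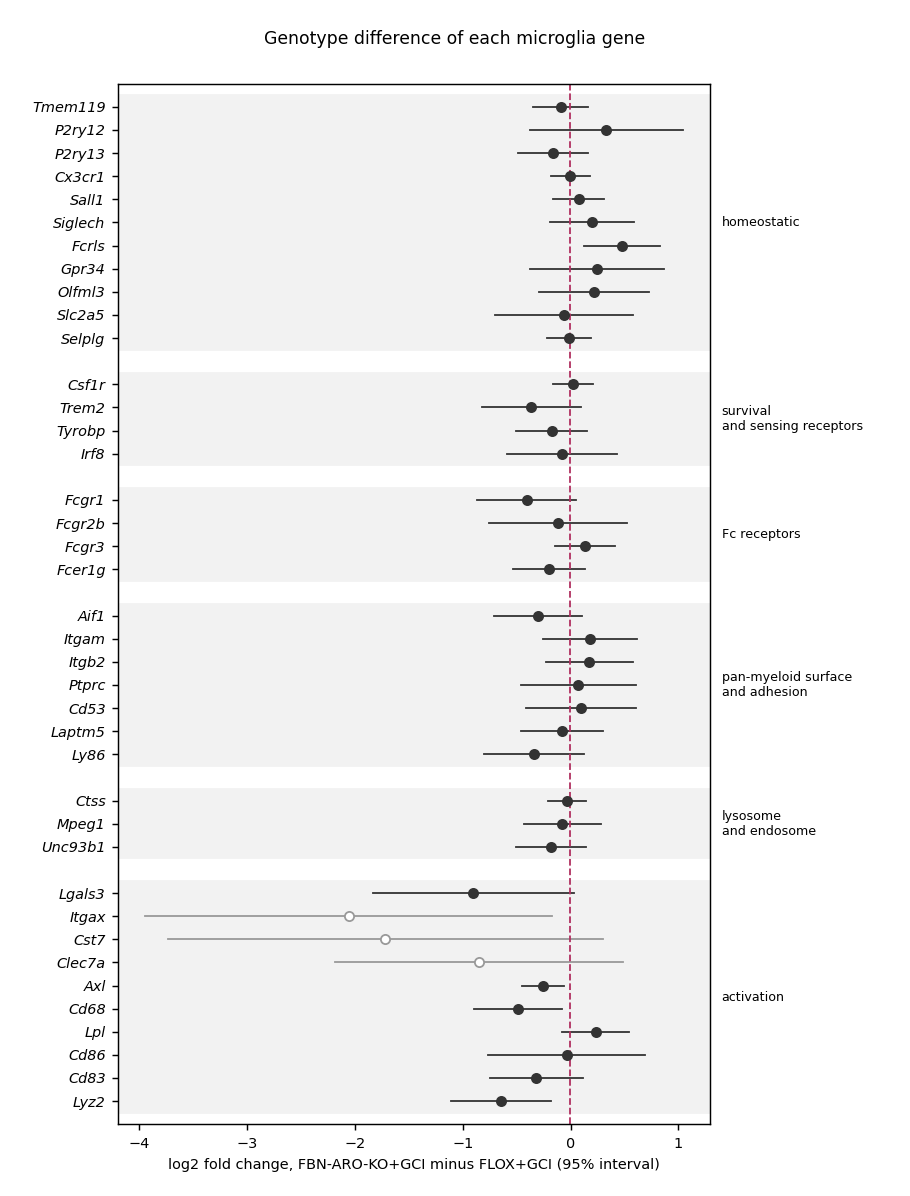
Log2 fold change of each microglia gene, FBN-ARO-KO+GCI minus FLOX+GCI, with its 95% confidence interval, filled for the 36 genes of the main test and open for Itgax, Cst7 and Clec7a, which come from a fit without the filter. The intervals of Fcrls, Axl, Cd68, Lyz2 and Itgax leave out 0 before adjustment. The homeostatic genes scatter on both sides of the dashed line, which marks the median of all genes tested, -0.0074.

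Within each library, the activation genes were set against the homeostatic genes. This difference depends little on how libraries are scaled to each other, but a trend over GC content need not cancel in it. The mean log2 CPM of the 6 activation genes minus that of the 5 homeostatic genes was -3.98 and -3.92 in the FLOX+GCI libraries and -4.74 and -4.92 in the FBN-ARO-KO+GCI libraries. The genotypes differed by -0.88 on the log2 scale. The pooled SD between libraries of a genotype, 0.0939, rests on 2 libraries of each and does not measure the error of this difference. The mean of the homeostatic genes was 4.87 and 4.69 in the FLOX+GCI libraries and 4.74 and 5.02 in the FBN-ARO-KO+GCI libraries, overlapping. The mean of the activation genes was 0.895 and 0.772 against 0.00558 and 0.102, with no overlap.

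The rare genes weigh heavily in this mean. With Axl and Cd68 alone as activation genes, a setting chosen after the data were seen, the difference per library was -0.316 and -0.0812 in the FLOX+GCI libraries and -0.581 and -0.754 in the FBN-ARO-KO+GCI libraries. The genotypes then differed by -0.47, still without overlap.

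**Figure D3:**
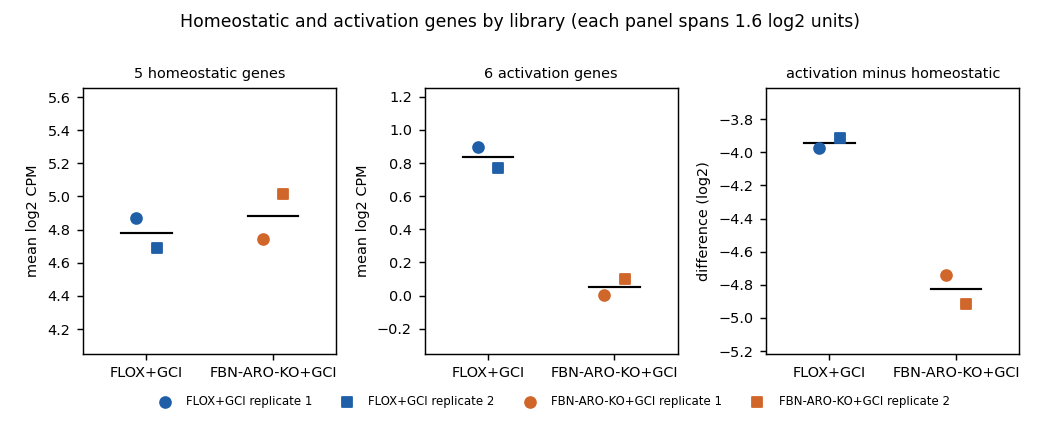
Mean log2 CPM of the 5 homeostatic genes, of the 6 activation genes, and their difference in each library, with replicate 1 as circles, replicate 2 as squares and a bar at the mean of each genotype. Homeostatic levels overlap between genotypes, whereas the difference in FBN-ARO-KO+GCI, at -4.74 and -4.92, lies below FLOX+GCI, at -3.98 and -3.92.

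The activation genes outside the contrast did not move as one. Lyz2, lysozyme M of macrophages, was at 10.1 and 7.91 CPM in FLOX+GCI and at 6.46 and 5.05 CPM in FBN-ARO-KO+GCI. The log2 fold change of Lyz2 was -0.64 ± 0.20, or 0.640-fold, with the smallest p of the 36 genes, 0.0134 unadjusted and 0.245 adjusted by edgeR. Lyz2 shares 15.4% of its 50-base stretches with Lyz1. Lpl, the lipoprotein lipase that microglia and some neurons make, had a log2 fold change of 0.23, and the co-stimulatory genes Cd86 and Cd83 had -0.03 and -0.32, and all 3 overlapped between genotypes. Over the 7 activation genes tested the median was -0.32, with 1 above 0 and 6 below.

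Csf1r, the receptor on which microglia depend for survival, was the third of the 39 genes by level per length, at 23.5 CPM per kb. It was at 113 and 106 CPM in FLOX+GCI and at 107 and 115 CPM in FBN-ARO-KO+GCI. The genotypes overlapped, and the log2 fold change of 0.02 ± 0.08 had an interval of -0.16 to 0.21. Exons of Csf1r overlap those of Hmgxb3 on the opposite strand over 16.7% of their length.

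Trem2, the lipid-sensing receptor, was at 12.7 and 10.1 CPM in FLOX+GCI and at 7.48 and 10.2 CPM in FBN-ARO-KO+GCI, with 1 library of each genotype at nearly the same level. Tyrobp, its signaling adaptor DAP12, was at 15.1 and 17.8 CPM in FLOX+GCI and at 13.5 and 15.6 CPM in FBN-ARO-KO+GCI, also overlapping. The log2 fold change was -0.36 ± 0.20 for Trem2, at an unadjusted p of 0.107, and -0.18 ± 0.14 for Tyrobp. Irf8, a transcription factor of the myeloid lineage, had -0.08.

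Aif1, which encodes the microglial stain Iba1, was at 5.75 and 6.45 CPM in FLOX+GCI and at 4.74 and 5.16 CPM in FBN-ARO-KO+GCI. Both FBN-ARO-KO+GCI libraries were lower, with a log2 fold change of -0.30 ± 0.17, an interval of -0.71 to 0.11 and an unadjusted p of 0.125. The other surface and adhesion genes gave no common direction: Itgam and Itgb2, the chains of the complement receptor CR3, had log2 fold changes of 0.18 and 0.17, Ptprc (CD45) 0.07, Cd53 0.09, Laptm5 -0.08 and Ly86 -0.34.

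Among the Fc receptors, Fcgr1 had the lowest log2 fold change, -0.41, at 4.43 and 4.42 CPM in FLOX+GCI and 3.17 and 3.52 CPM in FBN-ARO-KO+GCI. The shared signaling chain Fcer1g had -0.20, the inhibitory receptor Fcgr2b -0.12 and Fcgr3 0.14, and none of the 4 had an unadjusted p under 0.05. Fcgr2b and Fcgr3 share 10.7% and 12.8% of their 50-base stretches with each other, so their split is uncertain. The lysosomal and endosomal genes were close to level, with -0.03 for the protease cathepsin S (Ctss), -0.08 for Mpeg1 and -0.18 for Unc93b1, the chaperone of nucleic acid-sensing Toll-like receptors.

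Transcript GC content moved with genotype in these libraries. Across 14004 genes, the log2 ratio of FBN-ARO-KO+GCI to FLOX+GCI had a Spearman correlation with GC content of -0.553, the ratio of the FBN-ARO-KO+GCI libraries to each other had -0.478, and that of the FLOX+GCI libraries had 0.0997. Among the 36 microglia genes the correlation was -0.378, with a median GC content of 51.1% beside 50.6% for all genes tested. Genes are not independent replicates, and these correlations are given as descriptions.

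When the trend of each library over GC and transcript length was removed, the median log2 fold change of the microglia genes went from -0.07 to 0.00057, with 18 of 36 above 0, beside 0.03 for all genes. Fcrls stayed at 0.48 and Lyz2 came to -0.61. Lgals3 came to -0.74, Axl to -0.18 with an unadjusted p of 0.0376 and Cd68 to -0.36 with an unadjusted p of 0.0781. Trem2 came to -0.11, Tmem119 to 0.14 and Tyrobp to 0.06. All 3 activation genes of the contrast that were tested thus stayed below 0, and Tmem119 and Tyrobp turned their sign. Itgax, Cst7 and Clec7a have no value with the trend removed, and the activation minus homeostatic difference was not recomputed. Median GC content was 54.2% for the 3 activation genes tested and 49.6% for the 5 homeostatic genes of the contrast.

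**Figure D4:**
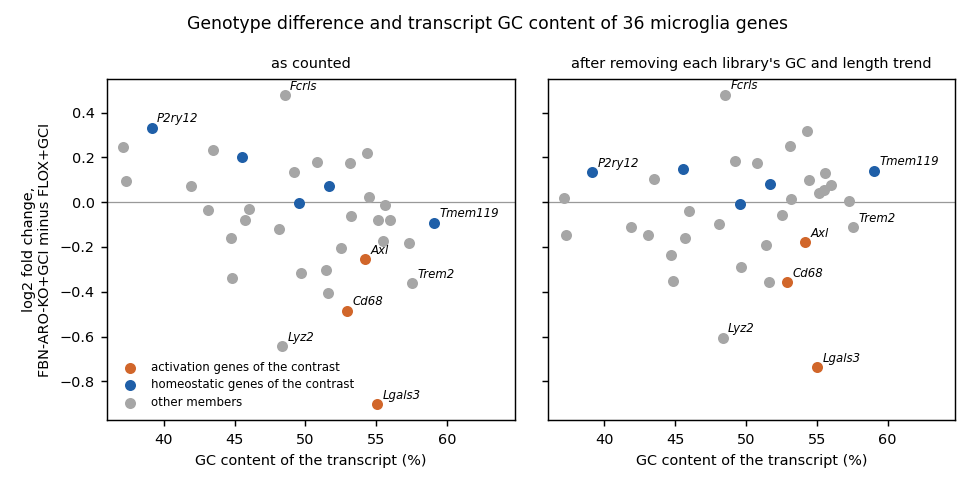
Log2 fold change of the 36 microglia genes tested against the GC content of their transcript, as counted at the left and after removing the GC and length trend of each library at the right, with homeostatic genes of the contrast in blue, activation genes in orange and others in gray. Fcrls is at 0.48 in both panels, Lgals3 moves from -0.90 to -0.74 and Trem2 from -0.36 to -0.11.

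Promoter sequence was examined because the activation genes of the contrast stood lower together. RefSeq promoters (GRCm38.p6) were at hand for 29 of the 39 genes, in 35 promoters, and not for Tmem119, Gpr34, Selplg, Csf1r, Tyrobp, Itgb2, Unc93b1, Lpl, Cd86 and Cd83. The 250 bases before each start were searched on both strands for the binding motif of PU.1, the transcription factor that defines the myeloid lineage, in full (GAGGAAGT) and as its overlapping left and right parts (GAGGAA and GGAAGT), and for the AP-1 motif TGACTCA. The full motif was in 0 member promoters and in 2.44% of all 32851 promoters. The left part was in 45.7% of member promoters and 23.3% of all, the right part in 34.3% and 19.7%, and the AP-1 motif in 5.71% and 4.46%.

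Both kinds of gene held a part of the motif. In the contrast, the left part was before the activation genes Clec7a, Axl and Cd68 only. The right part was before P2ry12, Sall1, Siglech, Itgax and Cst7. Outside the contrast, the homeostatic genes P2ry13 and Fcrls also held the left part. So few genes cannot show whether the letters separate the kinds. Stretches of 60 bases before the start are shown for 2 homeostatic and 4 activation genes, 5′ to 3′ on the strand of the gene, with the part of the PU.1 motif nearest the start in capitals (ACTTCC and TTCCTC are its reverse complements).
P2ry12, chr3:59263004-59263063, minus strand: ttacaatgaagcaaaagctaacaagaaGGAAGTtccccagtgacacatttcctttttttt
Siglech, chr7:55768001-55768060, plus strand: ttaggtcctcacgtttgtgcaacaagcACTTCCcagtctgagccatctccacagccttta
Itgax, chr7:128129482-128129541, plus strand: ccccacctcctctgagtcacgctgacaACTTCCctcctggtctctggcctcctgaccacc
Cst7, chr2:150570326-150570385, plus strand: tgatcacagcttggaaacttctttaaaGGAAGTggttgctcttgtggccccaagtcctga
Axl, chr7:25788831-25788890, minus strand: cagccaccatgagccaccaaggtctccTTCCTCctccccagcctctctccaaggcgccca
Cd68, chr11:69666361-69666420, minus strand: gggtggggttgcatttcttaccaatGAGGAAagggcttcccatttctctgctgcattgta
The AP-1 motif was found before 2 of the genes, Itgax, 50 to 56 bases before its start, and Cd68. A match of these letters is a description and not a binding site.

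The signals to which microglia respond were looked at next. Of 10 genes of ligands and restraint signals, 8 were tested, with a median log2 fold change of -0.08. By edgeR 0 had an adjusted p under 0.05, where 0.0138% of all genes tested did. At an unadjusted p under 0.05, 2 were lower, where 7.82% of all genes were. Csf1, a ligand of Csf1r, was at 40.5 and 43.4 CPM in FLOX+GCI and at 35.8 and 33.8 CPM in FBN-ARO-KO+GCI, which is -0.27 on the log2 scale, at an unadjusted p of 0.0209 and an adjusted p of 0.248 by edgeR. Tgfb1, the cytokine that maintains the homeostatic state, was at 4.99 and 3.81 CPM in FLOX+GCI and at 2.90 and 2.59 CPM in FBN-ARO-KO+GCI, with -0.68 at an unadjusted p of 0.0194. Gas6, the ligand of Axl, had -0.15 at an unadjusted p of 0.0817. Once the GC and length trend was removed, Tgfb1 had -0.38 at an unadjusted p of 0.111, Csf1 -0.18 at 0.0481 and Gas6 0.02.

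Of 26 regulators and signaling partners of microglia, 25 were tested, with 8 above 0 and 17 below and a median of -0.03. By edgeR 0 were called, where 0.0138% of all genes were, and 1 was higher at an unadjusted p under 0.05, where 8.72% were. Mertk, a receptor kinase of the same family as Axl that clears dying cells, was at 43.1 and 43.5 CPM in FLOX+GCI and at 52.4 and 54.1 CPM in FBN-ARO-KO+GCI. The Mertk difference of 0.30 ± 0.08 on the log2 scale (unadjusted p of 0.00708, adjusted p of 0.238 by edgeR) was opposite in sign to that of Axl. Rac2, a GTPase of the phagocyte oxidase, had -0.64 at an unadjusted p of 0.0559 and the cytokine receptor chain Csf2rb had -0.68 at 0.0677.

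A list of 21 disease-associated microglia genes outside the 39 was read beside the activation genes. Of 18 tested, 16 were below 0 and 2 above, with a median of -0.20. By edgeR 0 had an adjusted p under 0.05 and 5 were lower at an unadjusted p under 0.05, where 7.82% of all genes were, and 11 were lower without overlap, where 25.8% were. Csf1 is on this list as well as among the ligands. Cybb, the catalytic chain of the phagocyte NADPH oxidase, was at 0.998 and 0.933 CPM in FLOX+GCI and at 0.271 and 0.205 CPM in FBN-ARO-KO+GCI, with a log2 fold change of -1.99 ± 0.43, an unadjusted p of 0.00221 and an adjusted p of 0.238 by edgeR. With 25 and 23 counts against 9 and 6, Cybb passed the filter through the FLOX+GCI libraries, where it is high, so its fold and p are no support. Cybb is among the 16, the 5 and the 11 counted above and enters the medians of the list. These were not recomputed without it. Cd63, a tetraspanin of late endosomes, was at 26.8 and 29.6 CPM in FLOX+GCI and at 22.1 and 19.0 CPM in FBN-ARO-KO+GCI, with -0.45 at an unadjusted p of 0.00609. The ferritin light chain Ftl1 had -0.28 and -0.02 once the GC and length trend was removed. Without the trend the median of the list was -0.15, and several of its genes, such as Apoe and the cathepsins, are made by other brain cells as well.

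Of 17 further microglia genes, 16 were tested, with a median of -0.16, 5 above 0 and 11 below. By edgeR 0 were called, where 0.0138% of all genes were. At an unadjusted p under 0.05, 1 was higher, where 8.72% of all genes were, and 1 lower, where 7.82% were. The 3 with the smallest p were Golm1 at 0.26 (unadjusted p of 0.0102), the Toll-like receptor Tlr2 at -1.12 (0.0319) and the complement gene C1qc at -0.20 (0.0783). Tlr2 rested on FLOX+GCI libraries that differed from each other, at 1.64 and 3.94 CPM, against 1.33 and 1.23 CPM in FBN-ARO-KO+GCI. Once the GC and length trend was removed, the median of the list was 0.0074, with 9 of 16 above 0, and C1qc had 0.03.

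Other cells express some of the same genes, and their markers were measured in the same libraries. Border macrophages of the meninges and vessels, which share Lyz2 and Cd68 with microglia, were followed by 8 markers. Of these, 6 were tested and all 6 were below 0, with a median of -0.70, and Cd163 had -0.82 at an unadjusted p of 0.0267. Their summed level was 15.0 and 8.93 CPM in FLOX+GCI and 11.3 and 4.98 CPM in FBN-ARO-KO+GCI, so it overlapped between genotypes and was higher in replicate 1 of each. The 7 endothelial and mural markers were all below 0, with a median of -0.42. Of these, 5 overlapped between genotypes, where 7004 of all 14527 genes tested did. By edgeR 2 were lower at an unadjusted p under 0.05, where 7.82% of all genes were. The 7 summed to 254 and 181 CPM in FLOX+GCI and 198 and 147 CPM in FBN-ARO-KO+GCI, overlapping and higher in replicate 1 of each. Their median was -0.26 once the GC and length trend was removed, with 1 at an unadjusted p under 0.05, where 1652 of 14527 genes were. Axl is expressed by other brain cells too, vessel cells among them. The part of either cell type in the lower activation genes was not tested.

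Markers of leukocytes from the blood were rare. The 11 monocyte and neutrophil markers summed to between 2.07 and 2.77 CPM, with 1 of them tested, the protease gene Mmp9, at 0.34. The 10 lymphocyte markers summed to between 0.512 and 1.2 CPM, with 0 tested and 1 at 0 counts in every library. Of 5 red cell markers, the 4 hemoglobin genes Hbb-b1, Hbb-b2, Hba-a1 and Hba-a2 were at 0 in every library. Alignments that were not unique were left out of the counts, so 0 counts of these related genes do not show that blood was absent. Alas2, with 61 to 104 counts per library, had -0.81 at an unadjusted p of 0.0157 by edgeR. Choroid plexus markers gave no common direction, with 2 above 0 and 2 below of 4 tested and a median of -0.44. Ttr had -0.98 at an unadjusted p of 0.00469 and Kcnj13 -1.45 at 0.121 by edgeR, whereas Kl had 0.09 and Folr1 0.20. Kcnj13 differed between libraries of a genotype, at 3.31 and 0.89 CPM in FLOX+GCI and 1.33 and 0.17 CPM in FBN-ARO-KO+GCI. Neuron, astrocyte and oligodendrocyte markers had medians of 0.04, 0.08 and 0.04, with members on both sides of 0. At an unadjusted p under 0.05 by edgeR, Snap25 (0.20), Slc1a2 (0.21) and Mobp (0.29) were higher, where 8.72% of all genes were. Rbfox3 (-0.17) and Aldh1l1 (-0.30) were lower, where 7.82% were. With the GC and length trend removed, Snap25 had 0.11, Slc1a2 0.10, Mobp 0.36, Rbfox3 0.03 and Aldh1l1 -0.22.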

How the data were processed

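The authors aligned 50 bp single-end reads of hippocampal RNA to mm9 with TopHat2 (2.0.8b) and deposited raw HTSeq counts per gene symbol, with no normalization. The builds and tools come from the submitters' processing notes, and the HTSeq version, strand setting and annotation were not given in the sources used here. The 5 HTSeq counters of unassigned reads were left out, and 35.1 to 36.5% of alignments were not unique. From the counts, genotypes were compared with edgeR 4.0.16 (quasi-likelihood test, TMM, filterByExpr with a minimum count of 10) in R 4.3.3, with Benjamini-Hochberg adjustment over 14527 genes and calls at 0.05. SE was derived from the estimate and its F statistic. CPM were scaled by TMM, and log2 CPM used a prior count of 2. The counts fix the precision: genes with few counts have wide intervals. Genes below the filter came from a fit of all genes with 1 or more counts. Gene positions, length, GC content and shared 50-base stretches came from GENCODE M1 on NCBIM37. Older symbols such as Sfpi1, Sykb and Emr1 were matched through RefSeq, and Ly6g was not matched.

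The named genes were the 11 genes of the contrast, Csf1r, Aif1, Trem2, Tyrobp, members with an unadjusted p under 0.05, members below the filter and, for each further list, up to 3 genes with the smallest p. Members and lists were chosen with earlier results of these data known. Alternatives were DESeq2 1.42.0, other normalizations and filters, the replicate number as a block, edgeR's likelihood ratio test, a correction for GC content and length (splines with 5 degrees of freedom), and leaving out each library. The procedure was tested on simulated data.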

Additional observations from a re-analysis of the deposited data

How the results depend on the processing

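The count of all genes called was 292 with DESeq2, 5 with every gene of at least 1 count, 294 with the likelihood ratio test, 184 with the replicate block, 1 with GC content and length corrected and the replicate block, and between 0 and 193 with 1 library left out, beside 2 in the test reported. The replicate numbers come from the labels, which do not say whether same-numbered libraries shared a litter, batch or day. Across all genes tested, deviations of same-numbered libraries correlated at 0.129, over 2 pairs. The replicate block called 0 of the microglia genes, with a smallest adjusted p of 0.0676 by edgeR, and leaving out 1 library called between 0 and 1, which was Fcrls without FLOX+GCI replicate 2. All other settings called 0. Of the genes of other lists, the replicate block called Ttr (0.0136), Cdh5 (0.0149) and Kcnj13 (0.0499; adjusted p by edgeR). The median of the microglia genes was -0.13 to -0.01 with 1 library left out. Some genes turned sign, of which Cx3cr1 and Csf1r were near 0 in the test reported. P2ry12, at 0.33 there, and Tyrobp, at -0.18, were not near 0. Cx3cr1 had 0.0021 with DESeq2, 0.00067 with every gene of at least 1 count, and -0.02 to 0.01 with 1 library left out. Csf1r had -0.02 with library totals only and -0.03 to 0.07 with 1 library left out, and P2ry12 -0.14 to 0.75. Tmem119 had 0.14 and Tyrobp 0.06 with GC content and length corrected, and 0.14 and 0.05 with the replicate block added. The cause was not tested. The activation minus homeostatic difference was -1.06 with a prior count of 0.5, -0.70 with 5, -0.47 with Axl and Cd68 alone, and -0.97 to -0.79 with 1 library left out. The activation genes of the contrast were below 0 in every setting that fitted them. Libraries of a group number 2, and depth limits Lgals3, Itgax, Cst7 and Clec7a to a few counts.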
